A study of Mus musculus with 12 samples.

Results

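The 4 array probes M200003815, M300001987, M400000513 and M400018416 had a higher spleen-to-reference ratio in both TREX1 knock-in groups than in control spleen. They were chosen by name on that contrast and are 4 of the 35852 mouse probes on the array, of which 26502 were tested. The files and tables used here give no gene for any of the 4, so they are described as probes. A rise in the ratio can come from more signal in the spleen channel or from less signal in the reference channel, and the measurements below separate these parts. At M200003815 most of the rise lay in the spleen channel in both knock-ins. At M400000513 it did so with all controls after normalisation between arrays. The split there changed with the control arrays used and with that normalisation. At M300001987 the reference channel was lower on all knock-in arrays, and the spleen channel overlapped control. At M400018416 both channels were lower in V235fs than in control, the reference by more, and D272fs overlapped control in both.

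Spleen RNA came from mice on the C57BL6 background in 3 groups of 4 samples. One group carried human TREX1 with the V235fs mutation as a conditional knock-in, one carried human TREX1 with the D272fs mutation in the same way, and one was labelled control. The labels tie V235fs to retinal vasculopathy with cerebral leukodystrophy, a small-vessel disease abbreviated RVCL, and D272fs to a case of systemic lupus erythematosus. They do not give the Cre line or the cells that express the mutant protein, the genotype of the controls beyond that word, or the age of the mice. No gene names were at hand to check the tissue against its marker genes.

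TREX1 is an exonuclease that degrades DNA in the cytosol. When it is lost, self DNA can activate the cGAS-STING pathway and drive type I interferon. Frameshifts near the end of the protein, such as V235fs and D272fs, remove the segment that anchors it to the endoplasmic reticulum. On a 2-colour array, labelled complementary DNA from a sample and from a reference competes for the same spot. On all 12 arrays Cy3 marked the spleen and Cy5 a reference RNA that the labels call universal, with no dye swap. The Cy5 signal therefore does not come from the spleen samples.

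The sequences below are the Sequence entries of the 4 probes, written from 5′ to 3′ as the scanner files give them. They are shown because they are the only description of what these probes detect. Capitals mark the stop codons TAA, TAG and TGA in any of the 3 forward reading frames.
M200003815: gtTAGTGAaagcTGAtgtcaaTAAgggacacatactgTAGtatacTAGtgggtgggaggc
M300001987: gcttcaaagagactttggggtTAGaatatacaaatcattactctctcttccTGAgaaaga
M400000513: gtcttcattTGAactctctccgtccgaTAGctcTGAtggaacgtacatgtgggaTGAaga
M400018416: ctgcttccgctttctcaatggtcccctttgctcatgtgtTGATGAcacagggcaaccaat

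Each sequence was 60 bases long. Labelled cDNA is complementary to the RNA it was copied from, so a probe that captures it reads like the RNA. The stop codons of M200003815 fell in all 3 forward frames, so its 60 bases cannot be read through as a protein in the direction given. Probes without a stop-free forward frame made up 10.12% of the 34815 probes of this length. M300001987, M400000513 and M400018416 each had 2 stop-free forward frames, as did 39.22% of those probes. An open frame of this length is common (89.88% of probes had at least 1) and does not show that a probe lies in coding sequence. The polyadenylation motif AATAAA was in none of the 4 on either strand. It was in 2.03% of the 60-base probes as given and in 1.28% on the complementary strand.

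The base composition of the members differed. M300001987 had a GC content of 36.7%, and 0.6% of the 60-base probes had a lower one. M200003815 had 45% and M400000513 46.7%, both under the median of 48.3%. M400018416, at 50%, lay close to that median. No run of more than 8 bases was shared by any pair of members on either strand. The longest run shared with any other mouse probe was 15 bases, at M300001987. M400018416 shared 17 bases with a RefSeq promoter window of mouse build GRCm38.p6, and 10.2% of the 60-base probes shared as long a run, and no member shared more than 12 with a RefSeq miRNA sequence. In 362 tested probes with a GC content of at most 37%, the median Cy5 change in V235fs was −0.09 log2 units, against 0.04 over all tested probes. In D272fs these medians were −0.04 and 0.03. Over all tested probes GC content had a correlation with the Cy5 change of 0.13 in V235fs and 0.15 in D272fs. The part that base composition plays at the members was not tested.

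Each member was printed once per array. All 4 were well above background in both channels on every array, and no spot of theirs was saturated or marked as an outlier. Median net signals of mouse probes lay between 69.5 and 190 in Cy3 and between 72 and 154 in Cy5, with control replicate 3 the brightest array in both channels. The V235fs arrays shared 1 slide, the D272fs arrays another, and both were scanned on the same day. The controls came from 3 other slides and 2 other days. The effects of slide and day thus cannot be told apart from that of the knock-in. The normexp background estimate of D272fs replicate 3 was −392 in Cy3 where its negative control spots averaged 21.9, and its mean correlation with its group was 0.865, against 0.928 to 0.974 on the other 11 arrays. D272fs ratio differences from control are therefore also given without that array. On V235fs replicate 4 the estimate was negative too, at −21.6 against 20.4 in its negative control spots, and V235fs ratio differences are given without it as well. The number of arrays limits the precision, and the labels do not state that each sample is a mouse of its own, so the p-values cover the spread among samples, which may be technical.

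M200003815 had the largest rise of the 4 in V235fs. Its log2 ratio of spleen over reference was −0.30, −0.13, −0.10 and 0.13 on the V235fs arrays, 0.10, −0.06, −0.51 and −0.46 on the D272fs arrays, and −1.46, −1.09, −1.17 and −1.34 on the control arrays. All 8 knock-in values lay above all 4 control values. The difference from control was 1.17 (SE 0.15) in V235fs and 1.03 (SE 0.15) in D272fs, a 2.25-fold and a 2.05-fold higher ratio. Without D272fs replicate 3 the difference in D272fs was 1.13 (SE 0.14), and without V235fs replicate 4 that in V235fs was 1.09 (SE 0.16). These differences, and those of the other 3 members, chose the probes and are given with no test.

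After between-array normalisation, the spleen channel carried nearly all of the rise at M200003815. Net Cy3 signals, mean minus local background, were 599, 648, 806 and 913 in V235fs, 850, 741, 602 and 636.5 in D272fs, and 340, 405, 821 and 475 in control. Before normalisation only control replicate 3, on the brightest array, was within the range of the knock-ins. Net Cy5 signals were 1686, 1554, 1902 and 1771 in V235fs, 1724, 1800, 1815 and 1838 in D272fs, and 1543, 1988, 2138 and 1381 in control, so the reference signals of the groups overlapped. After normalisation, Cy3 was 10.28 ± 0.22 in V235fs, 10.16 ± 0.27 in D272fs and 9.16 ± 0.19 in control (log2, SD, n = 4 each), and here neither knock-in overlapped control. The Cy3 part was 1.12 (SE 0.15) of the rise in V235fs and 1.002 (SE 0.15) of that in D272fs, or 95.8% and 96.9%. The Cy5 part was a change of −0.05 (SE 0.09) in V235fs and −0.03 (SE 0.09) in D272fs, and it turned to 0.058 and 0.075 without control replicate 4. With no between-array normalisation the Cy5 change was −0.29 in V235fs and −0.15 in D272fs, and the Cy3 part was 0.88 in each. Over all 12 arrays its Cy5 value had an SD of 0.13, equal to the median of 0.13 over all tested probes.

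M400000513 had the smallest SE of the 4. Its log2 ratio was 0.35, 0.16, 0.29 and 0.40 in V235fs, 0.12, 0.28, 0.02 and 0.22 in D272fs, and −0.76, −0.48, −0.50 and −0.60 in control. The groups were again apart, and the lowest knock-in value was D272fs replicate 3, an array with a negative background estimate. With background from negative control spots the ratio of that array was 0.38, and Agilent's log2 ratio was 0.28. Each of these was the highest of the D272fs arrays. The difference from control was 0.89 (SE 0.09) in V235fs, a 1.85-fold higher ratio. In D272fs it was 0.74 (SE 0.09), a 1.68-fold higher ratio, and 0.79 (SE 0.09) without replicate 3. Without V235fs replicate 4 the V235fs difference was 0.85 (SE 0.10).

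With all controls and after between-array normalisation, the rise at M400000513 lay mainly in the spleen channel, with a part in the reference. Net Cy3 signals were 707, 739, 873 and 938 in V235fs, 728, 779, 795 and 790 in D272fs, and 636, 545, 1115 and 839 in control. Net Cy5 signals were 1231, 1436, 1545 and 1473 in V235fs, 1421, 1466, 1383 and 1386.5 in D272fs, and 1746, 1743, 1802 and 1438 in control. In these net signals control replicate 4 was the one control within the range of the knock-ins. After normalisation its Cy5 value was the highest of the 12, at 10.79, and control replicates 2 and 3, at 10.10 and 10.003, lay within the knock-in range of 9.97 to 10.18. Normalised Cy3 was 10.42 ± 0.13 in V235fs, 10.24 ± 0.09 in D272fs and 9.77 ± 0.30 in control (log2, SD, n = 4 each). V235fs lay above every control, whereas D272fs replicate 3, at 10.14, lay under control replicate 4, at 10.19. That D272fs array is the one with the negative background estimate. The other D272fs arrays, at 10.23 to 10.35, lay above every control. The Cy3 part was 0.64 (SE 0.13) in V235fs and 0.46 (SE 0.13) in D272fs, 72.6% and 62.1% of the rise.

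At M400000513 the split between the channels moved with the control arrays used and with the normalisation. Against the controls of one scan day, replicates 1 and 4, the Cy3 part was 0.43 in V235fs and 0.25 in D272fs, and Cy5 changed by −0.55 and −0.59. Against those of the other day, replicates 2 and 3, the Cy3 part was 0.85 and 0.67, and the Cy5 change was 0.064 and 0.024. The rise in the ratio itself was 0.98 and 0.84 with the first pair and 0.79 and 0.65 with the other. Leaving out control replicate 4 alone brought the Cy5 change to −0.10 in V235fs and −0.14 in D272fs. With all controls but no between-array normalisation, the Cy3 part was 0.39 in V235fs and 0.34 in D272fs. The Cy5 change was then −0.49 and −0.41, the larger part in both. The part that scan day plays in this split was not tested.

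M300001987 had a rise that lay mainly in the reference channel. Its log2 ratio was 0.84, 0.76, 0.96 and 1.12 in V235fs, 1.15, 1.31, 1.03 and 1.03 in D272fs, and −0.26, 0.50, 0.11 and 0.30 in control. All knock-in values were above all control values, and control replicate 1 was the lowest of all. The difference from control was 0.76 (SE 0.15) in V235fs and 0.97 (SE 0.15) in D272fs, a 1.69-fold and a 1.96-fold higher ratio. Without V235fs replicate 4 and D272fs replicate 3 in turn these were 0.69 (SE 0.16) and 1.002 (SE 0.16).

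The reference signal of M300001987 was lower on all 8 knock-in arrays. Net Cy5 signals were 4383, 4776, 4923 and 4745 in V235fs, 5622, 5459, 5290 and 5508 in D272fs, and 7120, 12743, 12892 and 7354 in control. Normalised Cy5 was 11.64 ± 0.04 in V235fs, 11.84 ± 0.06 in D272fs and 12.67 ± 0.24 in control (log2, SD, n = 4 each), a change of −1.03 (SE 0.09) and −0.83 (SE 0.09). Both knock-ins lay under every control. A Cy5 change as low was seen at 0.491% of tested probes in V235fs and at 0.268% in D272fs. A low Cy5 value raises the ratio that chose the probe, so these shares are no separate evidence. The change was nearly the same against the controls of either day, −1.03 and −1.03 in V235fs and −0.83 and −0.82 in D272fs. With 1 array left out it lay between −1.12 and −0.93 in V235fs and between −0.92 and −0.73 in D272fs. With no between-array normalisation it was −1.31 and −1.08.

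The spleen signal of M300001987 did not set the knock-ins above control. Net Cy3 signals were 3017, 3110, 3756 and 4123 in V235fs, 4751, 4772, 4599 and 4643 in D272fs, and 3464, 6201, 10036 and 6987 in control, so 3 of 4 controls were brighter than every knock-in array before normalisation. Normalised Cy3 was 12.56 ± 0.14 in V235fs, 12.97 ± 0.11 in D272fs and 12.83 ± 0.53 in control (log2, SD, n = 4 each), and both knock-ins overlapped the controls. The Cy3 difference was −0.27 (SE 0.21) in V235fs, opposite to the rise of the ratio, and 0.14 (SE 0.21) in D272fs, 14.8% of the rise. Without control replicate 1, the control with the lowest Cy3 value, these were −0.50 and −0.09. The latter turns the direction in D272fs. With no between-array normalisation they were −0.55 and −0.11.

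M400018416 had the smallest rise in V235fs. Its log2 ratio was −0.06, 0.08, −0.08 and 0.02 in V235fs, 0.29, 0.19, −0.01 and −0.02 in D272fs, and −0.31, −0.73, −0.87 and −0.70 in control. The groups were apart, with control replicate 1 nearest to the knock-ins. The difference from control was 0.64 (SE 0.12) in V235fs and 0.76 (SE 0.12) in D272fs, a 1.56-fold and a 1.70-fold higher ratio, and 0.81 (SE 0.13) in D272fs without replicate 3. Without V235fs replicate 4 the V235fs difference was 0.64 (SE 0.13).

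The 2 knock-ins reached that rise by different signals at M400018416. Net Cy3 signals were 52.9, 59.6, 56.4 and 64.1 in V235fs, 158, 136, 109.5 and 141 in D272fs, and 58.8, 149, 218 and 153 in control. Net Cy5 signals were 73.8, 71.8, 83.8 and 84.2 in V235fs, 203, 199 and 205 in D272fs replicates 1 to 3, and 94.7, 463, 398 and 257 in control. The Cy5 signal of D272fs replicate 4 was the highest of its group, at 7.92 after normalisation against 7.76 to 7.83. Control replicate 1 lay within the V235fs range in net Cy3 and just above it in net Cy5, and every D272fs spot was brighter than every V235fs spot in both channels. The Cy3 background around the spot was between 22 and 34 on the 12 arrays.

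After normalisation the Cy3 value of M400018416 was 7.08 ± 0.04 in V235fs, 7.95 ± 0.13 in D272fs and 7.56 ± 0.35 in control, and the Cy5 value was 7.09 ± 0.04, 7.83 ± 0.06 and 8.22 ± 0.53 in the same order (log2, SD, n = 4 each). In V235fs the Cy3 difference from control was −0.48 (SE 0.15) and the Cy5 difference −1.13 (SE 0.19), so the reference was lower by more than the spleen signal and the ratio was higher. Both channels of V235fs lay under every control, in Cy3 by a narrow gap, with V235fs replicate 4 at 7.12 and control replicate 1 at 7.14. A Cy5 change as low was found at 0.389% of tested probes, a share that is likewise tied to the choice of the probe. In D272fs the Cy3 difference was 0.38 (SE 0.15), 49.97% of the rise, and the Cy5 difference was −0.38 (SE 0.19), and in neither channel was D272fs apart from control. Without control replicate 1 the D272fs parts were 0.24 in Cy3 and −0.64 in Cy5. Only the controls of replicates 1 and 4, of one scan day, gave −0.19 for the Cy5 difference in D272fs, and those of replicates 2 and 3 gave −0.57. With no between-array normalisation it was −0.15.

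Set side by side, the ratios of all 4 members were without overlap against control in both knock-ins, where 7.15% of tested probes were higher without overlap in V235fs and 3.14% in D272fs. Those shares belong to the contrast that chose the members. The size of the rises depended on the normalisation: median centring in place of loess gave 0.43 at M300001987 in V235fs and 0.23 at M400000513 in D272fs, and scale normalisation between arrays gave 0.26 at M200003815 and 2.01 at M300001987 in D272fs. In Cy3 alone, M200003815 and M400000513 were above control without overlap in V235fs (13.7% of tested probes) and M200003815 in D272fs (4.61%). In V235fs M400018416 was below control in Cy3 without overlap (7.38%), and in D272fs none of the 4 was (5.34%). In Cy5 alone, M300001987 and M400018416 were below control without overlap in V235fs (7.86%) and M300001987 in D272fs (5.41%). Both channels enter the ratio that chose the members, so the channel shares are no independent background either. The median change over all tested probes was 0.03 in Cy3 and 0.04 in Cy5 for V235fs, and 0.01 and 0.03 for D272fs.

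The spread of the reference channel over all 12 arrays includes the Cy5 changes from control given above, so it is no separate measure of them. Over the 12 arrays the normalised Cy5 value ranged over 0.51 log2 units at M200003815, 0.82 at M400000513, 1.37 at M300001987 and 1.57 at M400018416. An SD as large as theirs was found at 49.6%, 12.2%, 1.60% and 0.872% of tested probes. Tested probes within 4 rows and 4 columns of a member numbered 32 to 49. Their median ratio change was between −0.02 and 0.05 in both knock-ins. The median Cy5 change there was between −0.07 and 0.04. M200003815 lay in the first of 85 columns of the array, at row 262, and the others lay away from the edge. M300001987 (row 177, column 15) and M400000513 (row 176, column 17) lay within 4 rows and 4 columns of each other, and both had a higher ratio. A median over the spots around a member does not show such a neighbour. The part that place on the array plays was not tested.

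The differences were also taken within a position on the slide. Since every knock-in ratio lay above every control ratio at the members, the sign of the ratio difference was fixed beforehand, and the values show sizes only. Position 4 held 1 V235fs, 1 D272fs and 3 control arrays, and position 1 held 1 array of each group. The control at position 1 was replicate 3, of scan day 3. A difference between the positions thus cannot be told apart from one between control arrays. The differences from control lay between 0.52 (M400018416) and 1.002 (M200003815) in V235fs at position 4 and between 0.89 and 1.31 at position 1. In D272fs they lay between 0.74 and 1.40 at position 4 and between 0.71 and 0.92 at position 1. The Cy5 change of M300001987 was −1.09 and −0.99 in V235fs at positions 4 and 1. That of M400018416 was −1.09 and −1.19. At the other members the V235fs Cy5 change differed in sign between positions 4 and 1, with −0.51 and 0.18 at M400000513 and −0.10 and 0.18 at M200003815. In D272fs it was −0.37 and 0.0046 at M400000513 and −0.13 and 0.15 at M200003815.

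The direct comparison of the knock-ins asked whether the members stood at the same level in both. It was not itself used to choose the probes, but it is the difference between the contrasts that were. Choice by a rise in both favours probes at similar levels in the knock-ins, so a missing call is no independent evidence of equal levels. In the ratio none of the 4 passed the test, where 0.00377% of tested probes did. The V235fs minus D272fs difference was 0.13 at M200003815 (95% interval −0.19 to 0.46, limma adjusted p = 0.747) and −0.21 at M300001987 (−0.53 to 0.11, limma adjusted p = 0.604). It was 0.14 at M400000513 (−0.05 to 0.33, limma adjusted p = 0.556) and −0.12 at M400018416 (−0.38 to 0.14, limma adjusted p = 0.716). The ratios of the knock-ins overlapped at all 4, and 7.09% of tested probes were apart. The intervals are not adjusted for the number of probes.

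In the single channels 1 of the 4 members differed between the knock-ins. Cy3 of M400018416 was lower in V235fs by a log2 value of −0.87 (SE 0.15, limma adjusted p = 0.0169), and so was its Cy5 by −0.75 (SE 0.19, limma adjusted p = 0.0244). All 4 V235fs arrays were lower than all 4 D272fs arrays in both channels. In Cy3 5.86% of tested probes were called between the knock-ins and in Cy5 14.4%, although Cy5 holds the same reference RNA, and each knock-in had a slide of its own. The Cy3 call was lost without V235fs replicate 2 or 3 (limma adjusted p = 0.0595 and 0.0704). The Cy5 call was lost without any 1 of 7 arrays, V235fs replicates 1 to 4 or D272fs replicates 1, 3 or 4 (limma adjusted p between 0.0535 and 0.0697). Neither was called without between-array normalisation (limma adjusted p = 0.265 in Cy3 and 0.739 in Cy5).

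The other 3 members showed no called channel difference between the knock-ins. At M300001987 the difference was −0.41 in Cy3 (SE 0.21, limma adjusted p = 0.24) and −0.20 in Cy5 (SE 0.09, limma adjusted p = 0.172), and V235fs was below D272fs without overlap in both. M400018416 was apart in both channels too, and 19.3% of tested probes were apart in Cy3 and 38.2% in Cy5. At M400000513 it was 0.18 in Cy3 (SE 0.13, limma adjusted p = 0.435) and 0.04 in Cy5 (SE 0.14, limma adjusted p = 0.889). At M200003815 it was 0.12 in Cy3 (SE 0.15, limma adjusted p = 0.676) and −0.02 in Cy5 (SE 0.09, limma adjusted p = 0.929).

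Among all probes, 0.494% were called higher in V235fs than in control, 0.034% were called higher in D272fs, and 8 probes (0.0302%) in both, the 4 members among them. The other 4 of these 8 are not described in full here. Their Cy3 part was between 55.1% and 145% of the rise in V235fs and between 22.2% and 123% in D272fs, so at each of them the spleen channel was higher in both knock-ins. M300001987 and M400018416 were the 2 of the 8 whose Cy3 difference in V235fs was below 0.

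The probes whose ratios followed the members most closely over the 12 arrays were found by Pearson correlation, as a description of 12 points that fall into 3 groups. M200003815 was followed by M300007975 (r = 0.975) and M200012235 (r = 0.971), and M400000513 by M200006778 (r = 0.972) and M200012235 (r = 0.968). The closest of these had a lower reference signal in both knock-ins, with Cy5 changes of −0.37 and −0.51 at M300007975 and of −0.49 and −0.61 at M200006778 (V235fs and D272fs). Their Cy3 differences were 0.82 and 0.47, and 0.58 and 0.15. M200012235, which follows both members, had a Cy3 difference of 0.71 from control in each knock-in and a Cy5 change of 0.01 in V235fs and 0.13 in D272fs. M300001987 was followed by M300010882 (r = 0.986) and M300001185 (r = 0.985). Both had a lower reference signal too, with Cy5 changes of −0.87 and −0.71 in V235fs and −0.99 and −0.81 in D272fs. M400018416 was followed less closely, by M200000285 (r = 0.920) and M400018203 (r = 0.915), and their Cy5 changes in V235fs were 0.26 and −0.16. Between the members themselves r lay between 0.762, for M300001987 with M400018416, and 0.949, for M200003815 with M400000513.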

How the data were processed

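For each spot the deposited files hold mean and background intensities of both dyes, processed intensities and the log10 of the Cy5 to Cy3 ratio, made by the scanner software Feature Extraction (version 11.5.1.1 by the file headers). According to those headers the processed values had background taken off and dyes balanced before they were deposited. A value table from the authors repeats the log10 ratios to within 0.005 on 36233 features; its column medians lie between 0 and 0.00346, so scale and direction were settled and no further centring was found. Intensities in the deposited file of D272fs replicate 4 are rounded to 3 digits. No build is used for coordinates: the files mark every mouse probe as unmapped.

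In R 4.3.3, limma 3.58.1 corrected the mean signals for background by normexp with an offset of 50. Each array was then normalised by loess, giving control spots no weight. The 69 outlier spots were set to missing and spots of a probe averaged. Probes well above background in Cy3 on at least 4 of 12 arrays, with at least 2 values a group, were tested. The linear model had a mean for each group and took in all arrays (9 residual and 2.62 prior degrees of freedom), and p-values were adjusted by Benjamini-Hochberg over all 26502 probes, with calls at 0.05. Channel values are log2 after Aquantile normalisation between arrays, so that the Cy3 minus the Cy5 difference equals the difference in ratio. The fit was tested on simulated data.

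The members and lists were chosen with earlier results of these data known. The named probes are the members and, for each, the 2 tested probes of highest correlation. Without gene names the interferon list, the cell type markers and the Trex1 level could not be used. Slide, scan day, position, replicate number, background, normalisation, filter, weights and left-out arrays were varied. The use of controls of 1 scan day was added after the data had been seen.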

Additional observations from a re-analysis of the deposited data

Results flagged for a closer look

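M400018416 differed between the knock-ins in each channel tested alone, by −0.87 in normalised Cy3 and −0.75 in normalised Cy5 (V235fs minus D272fs, log2), by limma over all tested probes. Its ratio differed by −0.12 and was not called. The part of the slides in both differences cannot be told apart from the knock-ins. Of 36 groups of 4 values (ratio, Cy3 and Cy5 of the 4 members in 3 groups), 0 had an array with an outlying gap by Dixon's criterion, where chance gives about 1 in 20.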

How the results depend on the processing

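Over the planned and added alternatives the ratio differences of the 4 members from control kept their direction except with Cy3 alone. Cy3 alone gave −0.24 at M300001987, 0.62 at M400000513 and −0.42 at M400018416 in V235fs, 0.18, 0.50 and 0.32 in D272fs, and a V235fs minus D272fs difference of −0.74 at M400018416 (limma adjusted p = 0.0125). By construction it drops the reference. Median centring gave 0.83 at M200003815, 0.43 at M300001987 and 0.58 at M400000513 in V235fs, and 0.48, 0.31 and 0.23 at these and 0.58 at M400018416 in D272fs. Scale normalisation gave 0.77 at M400000513 in V235fs, and 0.26 at M200003815 and 2.01 at M300001987 in D272fs. At M400018416, Agilent's log ratios and the authors' value table gave 0.88 in V235fs and 1.08 in D272fs, and a normexp offset of 0 gave 0.82 and 0.99. The causes were not tested.

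For the single channels, no between-array normalisation gave Cy3 differences in V235fs of 0.88 at M200003815 and 0.39 at M400000513, and of 0.62 at M400018416 in D272fs. Its Cy5 differences were −0.29, −1.31 and −0.49 at M200003815, M300001987 and M400000513 in V235fs and −1.08 at M300001987 in D272fs. It also turned Cy3 at M300001987 in D272fs to −0.11, gave −0.55 there in V235fs, and gave −0.15 in Cy5 at M400018416 in D272fs. Between the knock-ins it gave −1.22 in Cy3 and −1.10 in Cy5 at M400018416. Agilent's processed signals gave −1.03 (Cy3, V235fs), 0.63 (Cy3, D272fs) and −1.91 (Cy5, V235fs) at M400018416, and a called Cy5 difference between the knock-ins of −0.25 at M300001987 (limma adjusted p = 0.0454). The added controls of scan day 2, replicates 1 and 4, gave Cy3 differences at M400000513 of 0.43 (V235fs) and 0.25 (D272fs). Their Cy5 differences were −0.55 and −0.59 there and −0.21 and −0.20 at M200003815. The added controls of scan day 3, replicates 2 and 3, gave 0.85 and 0.67 in Cy3 at M400000513, and Cy5 turned to 0.064 and 0.024 there and to 0.11 and 0.13 at M200003815. With 1 array left out, the difference between the knock-ins at M400018416 lay between −0.96 and −0.80 in Cy3 and between −0.80 and −0.71 in Cy5, and that in Cy5 at M300001987 between −0.22 and −0.19, called only without control replicate 4 (limma adjusted p = 0.0423).

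Arrays with the same replicate number did not deviate together on average (12 pairs, mean correlation −0.104, from −0.515 to 0.351). With 4 arrays a group this cannot exclude that the numbers pair samples. With a replicate block the differences from control kept their values, such as 1.17 in V235fs and 1.03 in D272fs at M200003815 (SE 0.16), and none of the 4 members was called between the knock-ins in the ratio (limma adjusted p from 0.671 to 0.816). Slide as a random block left the differences of M200003815 at 1.17 and 1.04 (SE 0.16). Each slide held arrays of a single group, so this block cannot remove an effect of slide. At M400018416, where net Cy3 signals in V235fs were 52.9 to 64.1, no background subtraction gave ratio differences of 0.64 and 0.78 and background from negative control spots 0.68 and 0.78 (V235fs and D272fs).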
